A study of Vitis vinifera with 12 samples.

Results

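The miR160 family of grapevine (Vitis vinifera L.) was examined as 2 mature miRNAs, miR160a and miR160c, out of 81 mature miRNA sequences carried by a custom oligonucleotide array. Members were chosen by sequence alone: a probe belonged to the family when its reverse complement shared an exact run of at least 18 bases with a miR160 mature sequence. This rule found 8 of the 1947 miRNA probes, 4 for each miRNA, and no signal value entered it. All arrays came from cultivar Corvina, with low molecular weight RNA (LMW-RNA) labelled with Cy5, 1 sample to an array. The tissues were roots, young inflorescences taken 3 weeks before flowering, leaves from plants before flowering, and berries that were green, at veraison (the onset of ripening) or mature, taken 5, 9 and 15 weeks after flowering. Root material came from in vitro culture, unlike the field-grown remainder, so organ and growth condition cannot be told apart for roots. Seeds were removed before berry RNA was extracted, and leaves, roots and berries were pools. Each of the 6 tissues had 2 arrays, hybridized with LMW-RNA from separate extractions. Less of a miRNA in a tissue and fewer cells that contain it cannot be told apart in such extracts.

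Plant miR160 guides the cleavage of mRNAs that encode auxin response factors, transcription factors that bind the promoters of auxin-responsive genes. In Arabidopsis thaliana its targets are ARF10, ARF16 and ARF17, a branch of the family generally described as repressors. Plants in which these escape miR160 have defects in leaves and flowers. It is one of the oldest miRNA families of land plants and nearly invariant in sequence.

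The mature sequences, read as the reverse complement of the deposited 21-base probes, are shown because the results turn on how far the array separates them. T stands for U, and the seed (bases 2 to 8) is in capitals.
miR160a: tGCCTGGCtccctgaatgcca
miR160c: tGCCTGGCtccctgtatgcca
Both are 21 bases long and 20 of the 21 bases are identical. They differ by A15T, counted from the 5′ end of miR160a. The seed was shared by these 2 of the 81 mature probes and by no other. At 61.9% GC both lay near the top of the mature probes, whose GC content had a median of 52.4% and a range of 33.3 to 63.6%. Each miRNA had 1 probe of the full 21 bases and 3 probes of 20 bases with the same sequence, lacking the last base of the miRNA. The 3 copies measure the same RNA on the same array and are no replicates of a tissue. RefSeq annotates 5 MIR160 genes, MIR160A to MIR160E, among 155 miRNA genes of grapevine. Its MIR160E entry also carries the name MIR160F, whereas the study lists MIR160E and MIR160F as separate precursors.

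Every probe had a mismatch partner with 2 destabilizing changes, in both 21-base probes G11T and C15T counted from the 5′ end of the probe. The pair for miR160a is shown as the example, with the positions that differ in capitals.
miR160a probe: tggcattcagGgagCcaggca
miR160a mismatch probe: tggcattcagTgagTcaggca
The perfect match over mismatch ratio (PM/MM) exceeded 1.2, the limit used here for a reliable signal, in all 96 pairs of a family probe and an array. It ranged from 1.85 to 2521 for miR160a, with a median of 10.2, and from 11.2 to 15117 for miR160c, with a median of 74. Mismatch signals lay between 1 and 279 and none exceeded the background level of its array.

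A background level was set on each array from its 14 negative and degradation control probes, as their average plus 2 SD, and it ran from 666 to 4353 intensity units over the 12 arrays. A ubiquitin control was the brightest of the 14 on all 12 arrays, and without it the level ran from 283 to 949. Presence in a tissue required both arrays above background with a PM/MM above 1.2. On 3 arrays, the second of inflorescences, of veraison berries and of mature berries, 58 to 82 probes were listed at exactly 0, none of them among the 8 family probes. The slides were stripped and hybridized again 5 to 6 times, and the sources used here do not say which arrays shared a slide.

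miR160c gave a signal far above that of its mismatch probe in every tissue. Its 21-base probe had unnormalized intensities of 3087 and 15607 in roots, 15214.5 and 5739 in inflorescences, and 3152.5 and 2396.5 in leaves. In berries it had 1839.75 and 7201.5 at the green stage, 2480 and 3309 at veraison, and 2909 and 3386 at maturity. The highest arrays were one of roots and one of inflorescences, and the range of each of these organs overlapped that of green berries. The signal exceeded background on 10 of 12 arrays, and the exceptions were the second array of leaves, at 66.8% of its background level, and the first of green berries, at 77.5%. miR160c was therefore present in 4 of 6 tissues, roots, inflorescences, veraison berries and mature berries, and in leaves and green berries on 1 array of 2. Among all 81 mature miRNAs the share present was 23.5% in roots, 9.88% in inflorescences, 3.7% in leaves, 12.3% in green berries, 21% in veraison berries and 13.6% in mature berries. The 3 probes of 20 bases gave the same calls, except that 1 of them fell below background on the second array of mature berries. With the background level raised to the control average plus 3 SD, the 21-base probe was present in 3 tissues, and inflorescences dropped out.

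miR160a also stood above its mismatch probe on every array, but mostly under the background level. Its 21-base probe had 738.5 and 2521 in roots, 1045.5 and 683 in inflorescences, and 300 and 176 in leaves. In berries it had 573 and 3196.5 at the green stage, 772 and 903.5 at veraison, and 482 and 592 at maturity. Only the second array of roots, at 169% of its background level, and the second of green berries, at 459%, exceeded background, and all 4 miR160a probes did so on exactly these arrays. miR160a was thus present in no tissue under the rule of both arrays. With the ubiquitin control left out of the background, its 21-base probe exceeded background on 8 of 12 arrays and was present in roots, veraison berries and mature berries, and miR160c was then present in all 6 tissues. On this unnormalized scale both leaf arrays lay below every other array for the 21-base probe, whereas 1 of the 20-base copies had 267 on the second array of inflorescences and 273 on the first of leaves. Differences of miR160a between tissues are given below as measured values only and are not read as folds. In 4 tissues neither array exceeded background, and in the other 2 only 1 did.

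**Figure D1:**
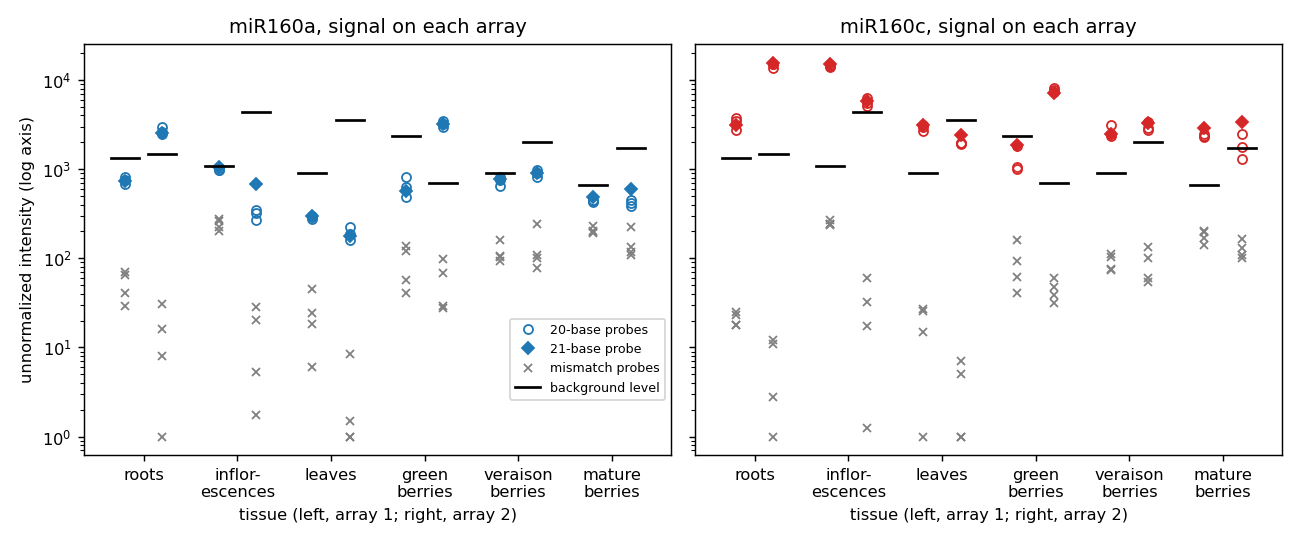
Unnormalized intensity (log axis) of the miR160a probes (left) and miR160c probes (right) on each of the 12 arrays, by tissue. Diamonds are the 21-base probe, open circles the 3 probes of 20 bases, crosses the mismatch probes and black bars the background level of the array. The miR160c signals exceed the bar on 10 of 12 arrays for the 21-base probe and the miR160a signals on 2.

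Copies of the same 20-base probe showed how well the array repeated itself. The brightest of the 3 copies exceeded the dimmest by a median of 1.19-fold over both miRNAs and all arrays. The widest gaps were 1.91-fold for miR160c on the second array of mature berries, 1.80-fold for miR160c on the first of green berries and 1.68-fold for miR160a on the first of green berries. The 21-base probe of miR160a was 2.20 times the mean of its 20-base copies on the second array of inflorescences, where its replicate spots had a coefficient of variation of 70.6%, against a median of 14.8% over all family probes and arrays. The 21-base probe of miR160c was 1.83 times its copies on the second array of mature berries. In some tissues the 2 arrays differed by more than the copies did: by 5.06-fold in roots, 3.91-fold in green berries and 2.65-fold in inflorescences for miR160c before normalization, and by 5.58-fold in green berries and 3.41-fold in roots for miR160a.

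The study asked whether miRNAs differ between the vegetative and floral organs and between the stages of ripening, and both comparisons were run on quantile-normalized log2 intensities. The mean for miR160c was 12.70 ± 1.25 in roots, 13.40 ± 1.25 in inflorescences and 11.71 ± 0.46 in leaves (SD, n = 2 each). Both arrays of inflorescences lay above both of leaves, whereas roots overlapped with each. The log2 difference was 1.69 between inflorescences and leaves (95% interval 0.07 to 3.31), 0.98 between roots and leaves (-0.64 to 2.60) and -0.71 between roots and inflorescences (-2.33 to 0.91). The intervals come from a fit over all 81 mature probes with no filter on presence and are not adjusted for the number of pairs. The difference between inflorescences and leaves was 0.36 after scaling to the 75th percentile, and 1.46 to 2.21 under the other 4 scalings. limma's moderated F test over the 3 organs gave an adjusted p of 0.242 for miR160c, so no organ difference passed the threshold of 0.05. Of the 25 miRNAs tested in this comparison, 36% were called. miR160c was called in the organs, with an adjusted p of 0.0319 in limma, when arrays were scaled on their U6 and tRNA controls and under no other alternative tried.

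Over ripening, miR160c had normalized log2 means of 11.18 ± 0.83 in green berries, 11.39 ± 0.14 in veraison berries and 12.69 ± 0.19 in mature berries (SD, n = 2 each). For this 21-base probe both mature arrays lay above the 4 arrays of the earlier stages. Of the 3 copies of 20 bases, 1 also kept mature apart from green berries, with a log2 difference of 1.37, and the other 2 overlapped, with differences of 0.74 and 0.64. For the 21-base probe the log2 difference between mature and green berries was 1.52 (95% interval -0.11 to 3.14), that between mature and veraison berries 1.30 (-0.32 to 2.92) and that between veraison and green berries 0.21 (-1.41 to 1.84). The F test gave an adjusted p of 0.383 for miR160c in limma, and none of the 20 miRNAs tested, 0%, was called. At an unadjusted p under 0.05, limma passed 3 of the 20 and the methods' one-way test 3, of which 0 were called after adjustment. The intervals leave room for several-fold differences in either direction between veraison and green berries. The direction over ripening depended on the normalization: after scaling to the 75th percentile, scaling on the positive controls or no scaling, the log2 difference between mature and green berries was -0.43, -1.02 and -0.21. The median of all 81 mature probes moved with these scalings, with differences of -0.48, -1.06 and -0.26, against 0.12 after quantile normalization.

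Over all 6 tissues, inflorescences had the highest normalized mean for miR160c, followed by roots at 12.70 and mature berries at 12.69, then leaves, veraison berries and green berries. The adjusted p for miR160c was 0.147 in limma, where 41.4% of 29 miRNAs were called. It was 0.0430 without the second array of leaves and 0.0499 without the second of inflorescences, the arrays with the highest background levels. These 2 fits tested 38 and 45 miRNAs, against 29, and each left 1 array in the tissue concerned. Between tissues next to each other in the order of means, the arrays overlapped with 1 exception. Those of mature berries lay above those of leaves, by a log2 difference of 0.98 (95% interval -0.64 to 2.60). Of the 20-base copies, 1 showed this gap, with a difference of 0.73, and in the other 2 mature berries and leaves overlapped, with differences of 0.14 and 0.40. In the fit over all 1947 probes no family probe was called, and limma's adjusted p of the 8 lay between 0.561 and 0.748 for the organs, where 4.73% of probes were called, and between 0.429 and 0.804 for the 6 tissues, where 4.62% were.

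miR160a did not enter these tests, since it was present in no tissue. Its measured means were 10.41 ± 0.74 in roots, 9.26 ± 1.04 in inflorescences and 8.40 ± 0.36 in leaves, and 10.12 ± 1.73, 9.66 ± 0.25 and 9.49 ± 0.52 in green, veraison and mature berries (normalized log2, SD, n = 2 each). Both arrays of leaves were below both of roots. With no filter on presence, limma's adjusted p for miR160a was 0.147 over the organs, 0.955 over the berry stages and 0.369 over the 6 tissues. Its differences between tissues compare signals that were mostly under background and rank no tissues. Mature minus green berries was -0.63 with all arrays and 0.59 without the second array of green berries.

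**Figure D2:**
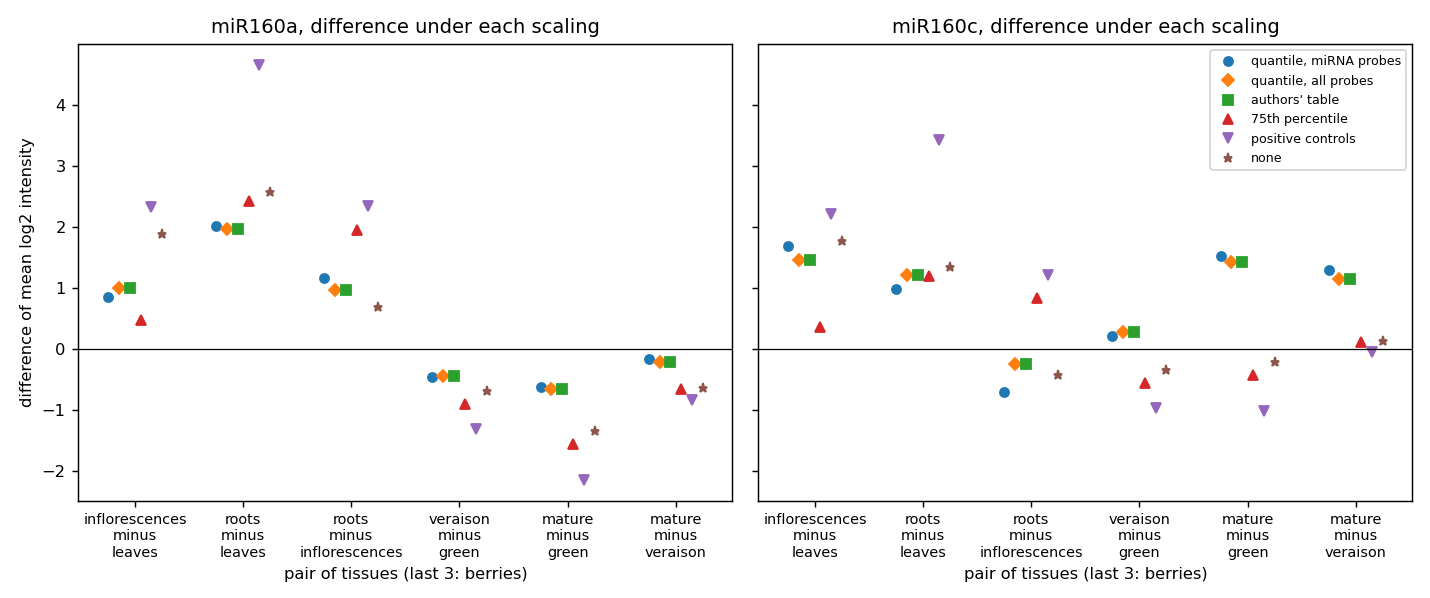
Difference of mean log2 intensity between pairs of tissues for miR160a (left) and miR160c (right) under 6 scalings of the arrays, shown by symbol; each mean is over 2 arrays. The miR160a points, which keep 1 side of 0 within a pair of tissues, compare signals that were above background on only 2 of 12 arrays, while the miR160c points of the berry pairs and of roots minus inflorescences fall on both sides.

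The ratio of the 2 signals within an array is free of scaling that array by a constant. It is given here as a description, since most miR160a signals lay under background. The miR160c signal was 4.18 and 6.19 times the miR160a signal in roots, 14.6 and 8.40 times in inflorescences, and 10.5 and 13.6 times in leaves. It was 3.21 and 2.25 times in green berries, 3.21 and 3.66 times in veraison berries, and 6.03 and 5.72 times in mature berries. All 4 arrays of inflorescences and leaves, at 8.40 or more, lay above the 8 arrays of the other tissues, at 6.19 or less, and both mature arrays lay above those of the earlier berry stages. These are ratios of probe signals, which also depend on how well each probe binds, so they are no ratio of molecules. The study treats cross-hybridization within a miRNA family as hard to exclude. How much of the miR160a signal came from miR160c RNA was not tested. The mismatch probes, with G11T and C15T, do not change the base by which the 2 miRNAs differ.

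Whether arrays of 1 tissue were closer to each other than arrays of different tissues was tested by pairing the 12 arrays in all 10395 ways. In an exact permutation test, one-sided, the pairs made by the tissues had a spread as small as or smaller than all but a few pairings (p = 0.00356, 37 of 10395 pairings). The relation was noticed in these data before it was tested and rests on signals under background. Neither this p nor those given below for the same ratio therefore shows that the ratio differed between tissues. The 20-base copies, on the same arrays, gave p = 0.000192 in the same exact permutation test, with ratios of 1.97 and 2.41 in green berries at the low end and of 14.4 and 18.2 in inflorescences at the high end. On normalized values the exact permutation p was 0.00587. Leaving out each array in turn gave exact permutation p-values between 0.00154 and 0.0144. Within the 3 organs or the 3 berry stages, 15 pairings exist and the smallest p is 0.0667. The exact p was 0.200 for the organs and 0.0667 for the berries.

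miR160a was not above background on 10 of the 12 arrays. On 8 of these miR160c was above background and the ratio has only a lower bound, and on the other 2, the second of leaves and the first of green berries, neither signal was above background and the ratio has no bound. When both signals were raised to the background level where they lay under it, the exact permutation p was 0.827, and it was 0.107 with the background level taken without ubiquitin. On that last scale, green berries had ratios of 2.15 and 2.25, and inflorescences 14.6 and 6.04.

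**Figure D3:**
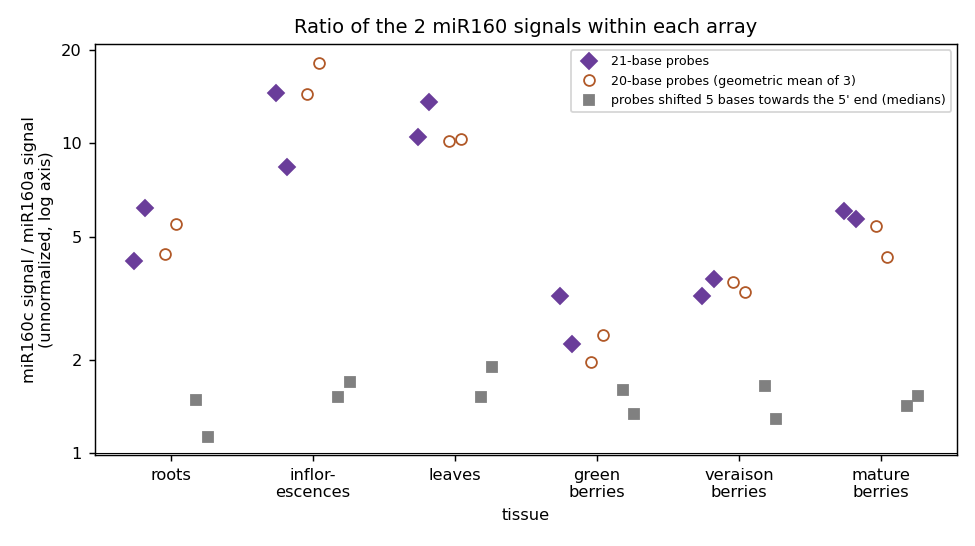
Ratio of the miR160c signal over the miR160a signal on each array (log axis), by tissue, before normalization. Filled diamonds are the 21-base probes, open circles the 20-base probes (geometric mean of 3) and grey squares the medians of the probes shifted 5 bases towards the 5′ end, which stay between 1.13 and 1.90 in all tissues.

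The array also carried probes moved along each precursor by 5 or 10 bases, meant as a test of specificity. The targets of those moved by 5 bases towards the 5′ end are shown because they kept more signal than the other shifts, with the bases of the mature miRNA in capitals.
miR160a, shifted target: tgatcTGCCTGGCTCCCTGA
miR160a, shifted target of 2 further probes: tgttcTGCCTGGCTCCCTGA
miR160c, shifted target: ggttgTGCCTGGCTCCCTGT
miR160c, shifted target of another probe: ttacaTGCCTGGCTCCCTGT
miR160c, shifted target of a further probe: atataTGCCTGGCTCCCTGT
Each holds the first 15 bases of the miRNA, so its mature part ends on the base by which the miRNAs differ. For miR160a, these probes gave a median of 126% of the mature probe on the same array, above 100% in 25 of 34 pairs of a probe and an array. On the 2 arrays where the mature probe was above background, the median was 119% and 3 of 6 pairs were above 100%, with a range of 63.6 to 247%. These pairs split by array. The second array of roots had 165, 247 and 208%, and the second of green berries 63.6, 72.5 and 67.8%. For miR160c, the median was 35.8%, with a range of 12.7 to 52.2%. Their median PM/MM was 10.7 for miR160a and 18.1 for miR160c.

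The median of the shifted miR160c probes exceeded that of the shifted miR160a probes on all 12 arrays. The ratio lay between 1.13 and 1.90, with a median of 1.52, against 2.25 to 14.6 for the mature probes. In the exact permutation test over the 10395 pairings, no difference of this ratio between tissues was detected (p = 0.547). Of the pairs of a shifted probe and an array, 12 of 34 for miR160a and 18 of 33 for miR160c were above background. This p therefore does not show that the ratio was alike in all tissues. The difference between the shifted and the mature probes was itself not tested. The shifted probes of both miRNAs were brightest on the second array of roots, with medians of 5928 for miR160c and 5233.5 for miR160a, and dimmest on the second of leaves, with 495 for miR160c and 260 for miR160a.

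The other shifts lost most of the signal. Probes of miR160c moved by 10 bases either way or by 5 bases towards the 3′ end had medians of 1.42 to 1.58% of the mature probe, and all pairs were under 10%. For miR160a the medians were 8.17% at 10 bases towards the 5′ end, 2.12% at 5 bases towards the 3′ end and 1.49% at 10 bases towards the 3′ end, of a mature signal that was itself mostly under background. On the 2 arrays where it was above, the medians were 2.15%, 0.0397% and 0.0355%. One miR160a probe moved by 10 bases towards the 3′ end had 2368.5 on the second array of veraison berries and 1322 on the second of mature berries, where 2 probes of the same sequence had 11 and 16, and 58.8 and 69.5. These arrays are among the 3 that list probes at 0, and 7 pairs of a shifted miR160 probe and an array were themselves listed at 0 and left out of the shares above.

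**Figure D4:**
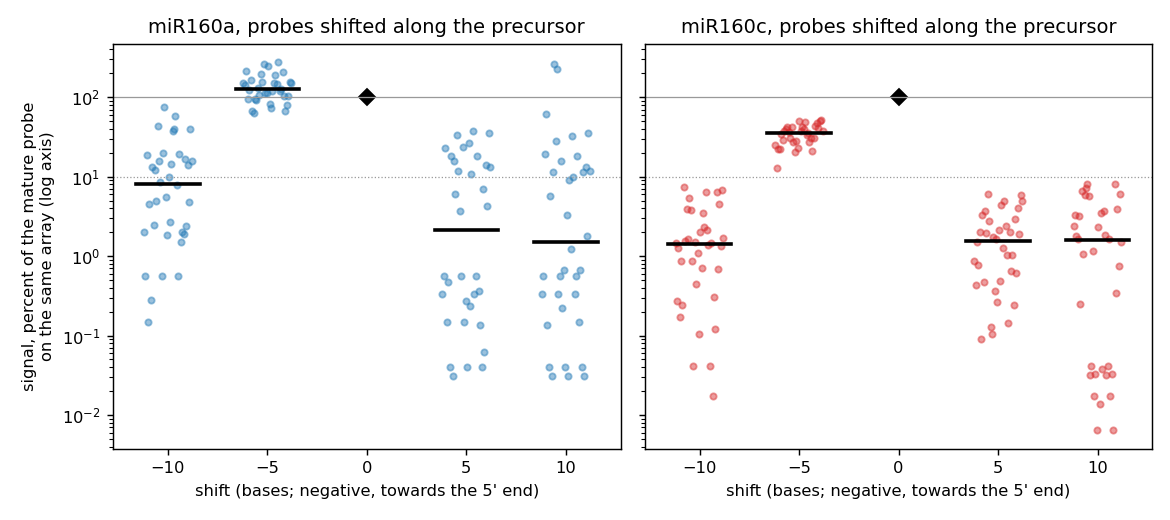
Signal of probes shifted along the precursor, as percent of the 21-base mature probe on the same array (log axis), for miR160a (left) and miR160c (right); points are probes on single arrays and black bars their medians. The shift of 5 bases towards the 5′ end (-5) keeps a median of 126% for miR160a and 35.8% for miR160c, and the others lie at 8.17% or below.

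The strand that pairs with miR160 in the precursor, miRNA*, was measured with 12 probes of 10 sequences. None was present in any tissue. Of 144 pairs of a star probe and an array, 9 exceeded background and 4 of these also had a PM/MM above 1.2. With the background level taken without ubiquitin, 76 of the 144 exceeded it, whatever their PM/MM. All 9 came from 2 probes, and these were brighter on their mismatch partner than on the perfect match on 10 and 8 of 12 arrays. The highest star signal, 7603.5 on the second array of inflorescences, stood beside a mismatch signal of 10492. Probes for the complement of the mature strand exceeded background in 0 of 24 pairs, with intensities of 121.5 to 1157.5. Loop probes could not be tied to miR160 precursors by sequence and were not used here.

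Among the other miRNAs of the auxin pathway, miR167 targets further auxin response factors, miR390 triggers small RNAs that act on a further branch of them, and miR393 targets auxin receptors. None of the 5 probes for these (3 of miR167, 1 of miR390, 1 of miR393) was called by limma over organs, over berry stages or over the 6 tissues, where 36%, 0% and 41.4% of all miRNAs tested were called, and neither was miR160c. miR393b over the organs, miR390 over the berry stages and miR160a in all 3 comparisons were present in no tissue compared and did not enter the test. At an unadjusted p under 0.05, with no filter, 1 of the 5 passed over the 6 tissues and none over organs or berry stages, against 44.4%, 44.4% and 12.3% of the 81 miRNAs over the 6 tissues, the organs and the berry stages. That one was miR390, with a mean of 12.53 ± 2.19 in leaves and 11.74 ± 0.60 in inflorescences, and between 9.95 and 10.36 elsewhere (normalized log2, SD, n = 2). miR167b was present in roots and in all 3 berry stages, miR390 in inflorescences and leaves, and miR393b in veraison berries.

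The 6 tissue means of miR160a and miR160c had a Pearson's r of -0.02, and over the 12 arrays, whose values share an array each, r was 0.33. Each 21-base probe followed its own 20-base copies closely, with r = 0.97 for miR160a and 0.91 for miR160c over 12 arrays. Of 28 other miRNAs present in at least 1 tissue, those most like miR160a over the 6 tissue means were miR159a (r = 0.85), miR403a (0.80) and a further form of miR159a (0.78). Over the 12 arrays their r was 0.80, 0.34 and 0.80, and the miR160a signal was above background on only 2 of these arrays. Those most like miR160c were miR156f (0.76), miR171e (0.53) and miR408 (0.39), so over the tissue means only the first came near its pattern. Over the 12 arrays their r was 0.46, 0.33 and 0.36, and that of miR159c was 0.48. miR156f, which targets SPL transcription factors of phase change and flowering, and miR171e shared the maximum of miR160c in inflorescences. There miR160c had 13.40 ± 1.25, miR156f 12.81 ± 0.52 and miR171e 11.63 ± 0.80 (normalized log2, SD, n = 2 each). The maximum of miR160c depended on the scaling. Its log2 difference of roots minus inflorescences was -0.71 here, 0.83 after scaling to the 75th percentile and 1.22 on the positive controls. It stayed negative under the other scalings. These correlations are descriptions over 6 tissue means or 12 arrays, and the values compared share their arrays.

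**Figure D5:**
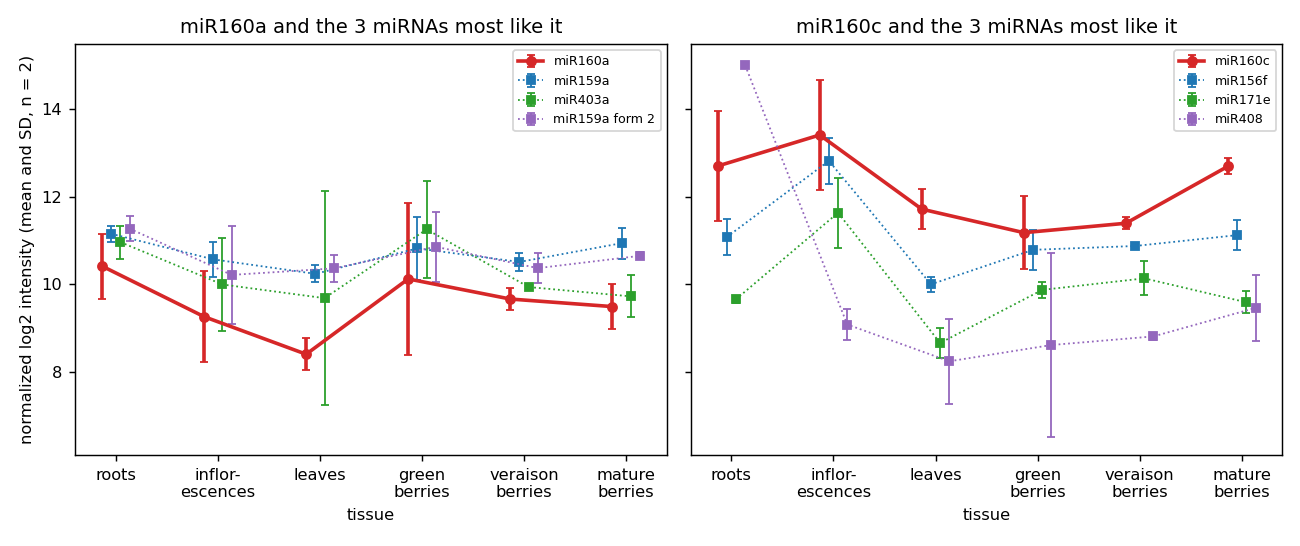
Normalized log2 intensity (mean and SD of 2 arrays) in the 6 tissues for miR160a (left) and miR160c (right), each with the 3 miRNAs most like it by correlation of tissue means. On this scale miR160c, miR156f and miR171e share their highest tissue, inflorescences. The miR160a means, from 10.41 in roots to 8.40 in leaves, come from signals above background on only 2 of 12 arrays and rank no tissues.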

How the data were processed

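The authors hybridized LMW-RNA to a CombiMatrix 12K CustomArray with 3 spots per probe, scanned it with a Perkin Elmer ScanArray and deposited, for each of 12 arrays, the median and SD of the spot intensities, linear and not normalized. A table of intensities that the authors had quantile-normalized was used as an alternative. The sources used here do not say whether a local background had been removed. Quantile normalization over the 1947 miRNA probes and log2 were followed by lmFit and eBayes in limma 3.58.1 (R 4.3.3), with 6 groups of 2 arrays, the moderated F test, p-values adjusted after Benjamini-Hochberg and called under 0.05. Mature miRNAs entered a comparison when 1 or more of its tissues had them present. Ratios and permutation tests used Python 3.11.15. p-values measure the spread between 2 extractions, and the number of arrays limits precision. The members, the lists and the ratio test were chosen with earlier results of these data known. Named miRNAs were the members, the auxin list and the 3 miRNAs most correlated with each member. Alternatives covered scaling, filter, background, array weights, arrays left out and the methods' one-way test. For scaled values, intensities under 50 were set to 50.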

Additional observations from a re-analysis of the deposited data

How the results depend on the processing

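The small number of arrays, 2 per tissue, and the low miR160a signal limited every comparison. miR160c kept its place above an adjusted p of 0.05 over the organs, the berry stages and the 6 tissues under all alternatives other than scaling on the positive controls (organs, 0.0319), the fit without leaves replicate 2 (6 tissues, 0.0430) and that without inflorescences replicate 2 (6 tissues, 0.0499), all in limma. Leaving out each array gave 0.0640 to 0.396 over the organs, 0.242 to 0.682 over the berry stages and 0.0430 to 0.281 over the 6 tissues. miR160a passed in no alternative in which it could be tested, with 0.183 and 0.510 for the arrays whose removal let it in over the organs and the berry stages, and 0.0995 to 0.440 over the 6 tissues.

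The miR160c differences changed sign with the scaling. Roots minus inflorescences was 0.83 after scaling to the 75th percentile and 1.22 on the positive controls. Veraison minus green berries was -0.55, -0.96 and -0.35 after scaling to the 75th percentile, on the positive controls and with no normalization, and mature minus green berries was -0.43, -1.02 and -0.21. Mature minus veraison berries was -0.056 on the positive controls, and 0.12 and 0.13 after scaling to the 75th percentile and with no normalization. Inflorescences minus leaves was 0.36 after scaling to the 75th percentile, against 1.69. For miR160a, mature minus green berries was -1.88 to 0.59 with an array left out, which was chosen after seeing the data. The cause was not tested.

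Over the organs, 9 of the 25 miRNAs tested were called, 36%. The count was 5 of 25 after scaling to the 75th percentile and 14 of 25 on the positive controls. In the methods' one-way test after adjustment it was 3 of 25. With another filter the set tested changed too, to 27 called of 81, 33.3%, with no filter and 24 of 53 with the background without ubiquitin. Over the berry stages 0 of 20 were called. The count was 1 of 20 with only the arrays of the comparison, with array weights and with the replicate block. It was 3 of 20 in the methods' one-way test unadjusted. Over the 6 tissues it was 7 with quantiles over all probes and with the authors' table, 6 after scaling to the 75th percentile, 29 with no filter, 28 without ubiquitin and 7 to 20 with an array left out, against 12.

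The labels tie no arrays of the same number together. Between tissues the difference of array 1 minus array 2 correlated from -0.62 to 0.49 over the mature miRNAs, over 0.1 in 7 of 15 pairs of tissues. The 3 arrays that list probes at 0 all carry number 2, and array 2 had the higher background level in 5 of 6 tissues. Whether arrays of one number shared a slide was not tested. With the replicate block, limma's adjusted p for miR160c was 0.250, 0.405 and 0.158 over organs, berry stages and 6 tissues. miR160a was present in 3 tissues with the background without ubiquitin, in 2 on 1 of the 2 arrays, and in 0 to 1 with an array left out. miR160c was present in 4 to 5 tissues with an array left out. For the within-array ratio, a relation noticed in these data before it was tested, the exact permutation p was 0.827 with both signals raised to the background level. It was 0.107 with that level taken without ubiquitin.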
